A study of Paralichthys olivaceus with 6 samples.

Results

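Pteridine synthesis was followed through 5 genes of the flounder gene set: the 4 rows named GTP cyclohydrolase 1 (GCH1), with the gene IDs GS_005902, GS_005903, GS_008748 and GS_013228, and the row named sepiapterin reductase (SPR), GS_007124. They were taken by gene ID, and they are 5 of the 22498 genes of the count table. The names are matches to GCH1 of human or rat and to SPR of the frog Xenopus. RNA was sequenced from the ocular-side skin, the upward-facing and normally pigmented side, of 3 albino Japanese flounder (*Paralichthys olivaceus*; PO_alb1, PO_alb2 and PO_alb3) and of 3 normally pigmented ones (PO_con1, PO_con2 and PO_con3). All 6 fish came from 1 full-sib family, were 5 months old and gave 1 library each of the kind used here. The labels call the albino state a genotype or variation and name no allele or treatment. The question was which genes differ between albino and normal skin.

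GTP cyclohydrolase 1 catalyses the entry step from GTP into pteridine synthesis, and sepiapterin reductase works at the end of the route to tetrahydrobiopterin, the cofactor of the aromatic amino acid hydroxylases. In fish the same route also feeds the yellow and orange pteridine pigments of xanthophores, and in zebrafish xanthophores the GTP cyclohydrolase gene gch2 is a well-known marker. Melanophores, the black pigment cells, make melanin by another route that starts with tyrosinase. Skin is a mixture of cells, so fewer cells of a type and less RNA per cell cannot be told apart in these libraries.

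Each library held between 17905084 and 20025047 counted reads. Composition differed between fish of 1 group, with TMM scaling factors of 1.05, 1.05 and 0.791 in PO_alb1, PO_alb2 and PO_alb3 and of 0.879, 1.03 and 1.27 in PO_con1, PO_con2 and PO_con3. PO_con3 stood apart among the normal fish: the summed level of 4 muscle genes was 662.5 TMM CPM there (counts scaled for library size and composition), against 1333.6 and 1193.0 in PO_con1 and PO_con2. The albino libraries held 1813.3 to 2571.7 TMM CPM of the same genes. Nearly all of these sums came from 1 gene, DES, with 638.7 TMM CPM in PO_con3 and 1289.6 and 1159.9 in PO_con1 and PO_con2. Fold changes of the GCH1 and SPR genes are also given without PO_con3, while the normal means and ranks below include it.

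All 5 genes were almost silent in albino skin. GS_005902 had 1, 2 and 5 reads in PO_alb1, PO_alb2 and PO_alb3, against 663, 980 and 1932 reads in PO_con1, PO_con2 and PO_con3. As RPKM, in which reads are set against gene length and library size, this gene stood at 0.082, 0.158 and 0.406 in the albino fish and at 48.6, 78.5 and 155.6 in the normal fish. The highest albino fish thus lay far below the lowest normal fish. GS_005902 was among the more abundant transcripts of normal skin, above 95.2% of the 16260 genes tested. Its albino mean was above only 1.26% of them. A filter on low counts had removed genes low in both groups, so this low albino place follows partly from the filter.

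GS_005903 was not detected in albino skin. It had 0, 0 and 0 reads in the albino libraries, against 199, 244 and 517 reads (16.9, 22.6 and 48.2 RPKM) in PO_con1, PO_con2 and PO_con3. A count of 0 still allows up to 3 reads over the 3 albino libraries, so the gene was at least 282.0-fold lower in albino skin. It was the only gene of the table with 0 albino reads and at least 960 normal reads, a limit set at its own normal total. With a limit of 100 normal reads, 4 genes had 0 albino reads.

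GS_008748 had 3, 1 and 2 reads in PO_alb1, PO_alb2 and PO_alb3, and 662, 623 and 1412 reads in PO_con1, PO_con2 and PO_con3. In RPKM these were 0.305, 0.0978 and 0.201 in albino skin and 60.2, 61.9 and 141.1 in normal skin. With GS_005902 it was 1 of the pair of strongly expressed GCH1 rows in normal skin.

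GS_013228, the weakest GCH1 row in normal skin, had 1 read in each albino library, against 149, 146 and 336 reads in PO_con1, PO_con2 and PO_con3. Its level was 0.0945, 0.0908 and 0.0935 RPKM in albino fish and 12.6, 13.5 and 31.2 RPKM in normal fish. The 3 albino values are the level of a single read.

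SPR had 7, 1 and 1 reads in PO_alb1, PO_alb2 and PO_alb3, against 218, 225 and 447 reads in PO_con1, PO_con2 and PO_con3. Per length, SPR stood at 0.476, 0.0653 and 0.0673 RPKM in the albino fish and at 13.2, 14.9 and 29.8 RPKM in the normal fish. Among the albino fish PO_alb1 was the high one, and it was still far below every normal fish.

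**Figure D1:**
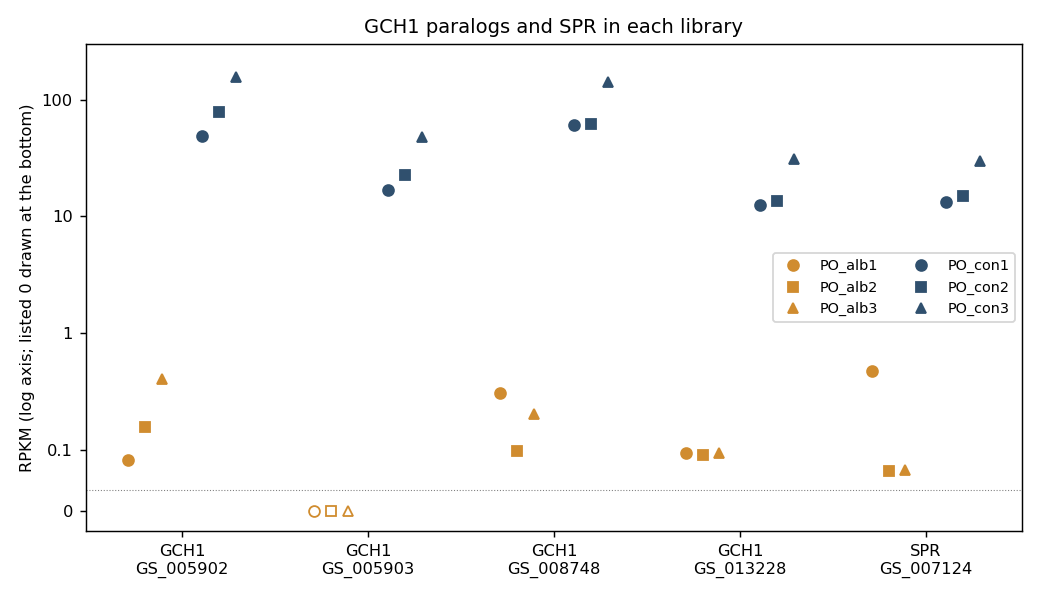
RPKM (log axis, with listed values of 0 at the bottom) of the 4 GCH1 rows and SPR in each of the 3 albino (orange, left) and 3 normal (blue, right) fish. Every albino point is below 0.5 RPKM and every normal point is above 12 RPKM, with PO_con3 the highest normal fish for all 5 genes.

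The comparison of albino with normal fish used the quasi-likelihood test of edgeR on the counts, and p-values were adjusted by Benjamini-Hochberg across the 16260 genes tested. All 5 genes passed at an adjusted p under 0.05 and were lower in albino skin, where 0.91% of all genes tested were called lower, 0.129% higher and 1.04% either way. Each of them passed the filter on low counts through the normal fish, where it is high, so the count of 5 is a description of these genes and not a separate result. In GS_008748 the log2 fold change of albino over normal was -8.50 (SE 0.42, adjusted p = 0.00019, edgeR). GS_005902 changed by -8.49 (SE 0.53, adjusted p = 0.0004, edgeR), a difference from GS_008748 well within the SE of either. GS_013228 changed by -7.33 (SE 0.46, adjusted p = 0.0004, edgeR). SPR had the smallest change of the 5, at -6.36 (SE 0.48, adjusted p = 0.0007, edgeR). For GS_005903 the adjusted p was 0.0025 (edgeR), and its size is read from the bound above, since a fitted fold change against 0 reads depends on the prior count. The groups did not overlap in any of the 5 genes, as was so for 7.47% of all genes tested in the lower direction and 13.2% in either. For 1 gene alone, the smallest two-sided p of an exact permutation test with 3 fish a group is 0.1, and the p-values above borrow the spread of other genes.

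Ordered by fold change among all 16260 genes tested, GS_005903 had the lowest fitted value, GS_008748 and GS_005902 stood at ranks 8 and 9, GS_013228 at rank 15 and SPR at rank 25. The place of GS_005903 rests on a value fitted against 0 reads, and its bound does not put it below GS_008748 and GS_005902. A coarser view, with limits set after the values had been seen, restates the same values and is no separate result. Of the 6174 tested genes with a mean of at least 10 RPKM in normal fish, 24 (0.389%) had a mean under 1 RPKM in albino fish, and the 5 genes were among these 24.

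The size of what was left in albino skin was small for all 5 genes and rested on few reads. TMM CPM averaged 0.117 ± 0.0579 in albino and 43.9 ± 15.0 in normal fish for GS_008748 (SD, n = 3 each), so 0.267% remained. For GS_005902 the means were 0.168 ± 0.159 in albino and 57.7 ± 23.4 in normal fish (SD, n = 3 each), and 0.292% remained. GS_013228 averaged 0.0582 ± 0.0102 in albino and 10.2 ± 3.71 in normal fish (SD, n = 3 each), with 0.568% remaining. For GS_005903 the upper limit was 0.355%. SPR averaged 0.165 ± 0.181 in albino and 14.5 ± 4.12 in normal fish (SD, n = 3 each), with 1.13% remaining.

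Read depth limits how finely these residues can be ranked. The ratio of normal to albino reads, summed over the fish of a group and scaled for depth, was 396.1 for GS_008748 (95% exact interval 181.7 to 1080.2) and 393.8 for GS_005902 (199.6 to 912.7). It was 185.3 for GS_013228 (63.1 to 901.1) and 87.1 for SPR (45.7 to 191.2). The intervals of the 3 GCH1 rows overlap one another, and that of SPR lies below that of GS_005902 but meets those of GS_008748 and GS_013228. The intervals cover counting error only, not the spread between fish, and the difference between SPR and GCH1 was not tested. It also turned on 1 fish. Set against the normal mean, SPR stood at 2.57% in PO_alb1 and at 0.353% and 0.481% in PO_alb2 and PO_alb3, and without PO_alb1 its log2 fold change was -7.79 with 0.417% remaining. For GS_005902 the fish to name is PO_alb3, with 0.606% of the normal mean, against 0.0926% and 0.178% in PO_alb1 and PO_alb2. Without PO_alb3 the log2 fold change of GS_005902 was -9.42 and 0.135% remained.

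The 4 GCH1 rows together held 5, 4 and 8 reads in PO_alb1, PO_alb2 and PO_alb3, 17 of 54624961 counted reads, against 1673, 1993 and 4197 reads in PO_con1, PO_con2 and PO_con3, 7863 of 56590963. Their summed level was 0.482, 0.346 and 0.701 RPKM in the albino fish and 138.3, 176.5 and 376.1 RPKM in the normal fish. Of the 17 albino reads, 8 fell on GS_005902 (47.1%, exact 95% interval 23.0 to 72.2%), 6 on GS_008748 (35.3%, 14.2 to 61.7%), 3 on GS_013228 (17.6%, 3.8 to 43.4%) and none on GS_005903 (0%, up to 19.5%). Each interval contains the share that the row holds of the normal reads, so a different make-up of GCH1 in albino skin was not detectable at this depth.

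In normal skin, GS_005902 and GS_008748 carried most of the GCH1 transcripts. Levels between genes were compared per length, as shares of the summed RPKM of the 4 rows. GS_005902 held 40.3 ± 4.75% and GS_008748 held 38.7 ± 4.36% (SD, n = 3 fish), a difference below the spread between fish. By counts, with no regard to length, the mean shares were 44.9% for GS_005902 and 34.8% for GS_008748, so the gap between these rows depends on the lengths used. GS_005903 held 12.6 ± 0.35% and GS_013228 held 8.34 ± 0.735% (SD, n = 3 fish). The order of the lower pair was the same in each fish, GS_005903 at 12.2, 12.8 and 12.8% and GS_013228 at 9.1, 7.63 and 8.29% in PO_con1, PO_con2 and PO_con3, and both lay far below the upper pair in every fish.

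The order of the upper pair was not fixed. GS_008748 led in PO_con1 with 43.5%, against 35.1% for GS_005902, and GS_005902 led in PO_con2 with 44.5%, against 35.1%, and in PO_con3 with 41.4%, against 37.5%. The same division can be read from the GCH1 reads of each fish, with intervals for counting error. GS_005902 took 39.6% of them in PO_con1 (exact 95% interval 37.3 to 42.0%), 49.2% in PO_con2 (47.0 to 51.4%) and 46.0% in PO_con3 (44.5 to 47.6%). GS_008748 took 39.6% in PO_con1 (37.2 to 42.0%), 31.3% in PO_con2 (29.2 to 33.3%) and 33.6% in PO_con3 (32.2 to 35.1%). For both rows the interval of PO_con1 lies apart from those of PO_con2 and PO_con3, which says that the libraries differ by more than counting error. With 1 library per fish, no spread within a fish was measured, so this is a description of 3 libraries. The share of GS_005903 was 11.9, 12.2 and 12.3% of the GCH1 reads in PO_con1, PO_con2 and PO_con3.

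**Figure D2:**
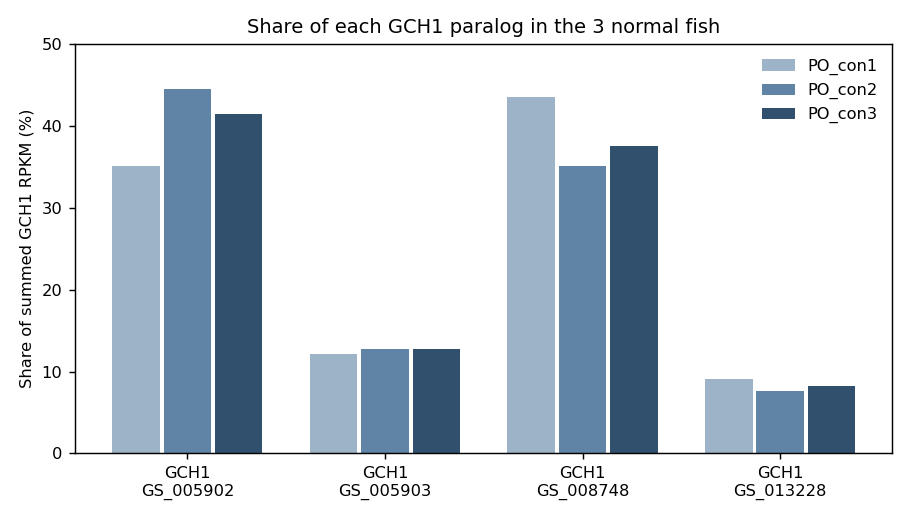
Share of each GCH1 row in the summed GCH1 RPKM (%, axis from 0) of PO_con1, PO_con2 and PO_con3, 1 bar per fish. GS_005902 and GS_008748 hold 35.1 to 44.5% each and change places between PO_con1 and the other fish, and GS_005903 and GS_013228 hold 7.63 to 12.8%.

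The rows also differ in place and length. The annotation puts GS_005902 and GS_005903, which have consecutive IDs, on chromosome 24, GS_008748 on chromosome 4 and GS_013228 on chromosome 3. The chromosome 24 pair together held 47.4, 57.3 and 54.2% of the GCH1 RPKM of PO_con1, PO_con2 and PO_con3. Within this pair GS_005902 exceeded GS_005903 by 2.88, 3.47 and 3.23 times per length in the same fish. The lengths implied by reads and RPKM were 681 bases for GS_005902, 588 for GS_005903, 549 for GS_008748, 591 for GS_013228 and 822 for SPR. These are coding lengths, since 20120 of the 20121 lengths of known genes with reads were multiples of 3, and they correspond to 227, 196, 183, 197 and 274 codons. Reads in untranslated ends could not be counted to such models. The NCBI RefSeq table of a newer flounder assembly (ASM2471397v2) has 1 gene named gch1 and 1 named gch2, and none of its entries could be paired with a deposited ID. Whether the rows are complete genes, and how reads shared by near-identical rows were assigned, was not tested, so the division between rows is uncertain where their sequences are alike.

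SPR was expressed well below summed GCH1 in normal skin. Its RPKM was 9.57, 8.46 and 7.93% of the summed GCH1 RPKM in PO_con1, PO_con2 and PO_con3 (8.65 ± 0.837%, SD, n = 3). This range is narrow, although the RPKM levels themselves spread by more than a factor of 2. In TMM CPM the levels spread less, from 95.1 to 181.1 for summed GCH1 and from 11.9 to 19.3 for SPR. In albino skin the same ratio was 98.7, 18.9 and 9.6% in PO_alb1, PO_alb2 and PO_alb3, which rests on 9 reads of SPR and 17 of GCH1 and says little beyond the high fish PO_alb1.

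The 5 genes moved together across the normal fish, with PO_con3 highest in each. In TMM CPM relative to its own mean over the 3 normal fish, GS_005902 stood at 0.654, 0.901 and 1.45 in PO_con1, PO_con2 and PO_con3, and GS_005903 at 0.729, 0.833 and 1.44. In both of these chromosome 24 rows PO_con1 was the lowest fish. GS_008748 stood at 0.858, 0.753 and 1.39, and GS_013228 at 0.828, 0.756 and 1.42, both with PO_con2 lowest. SPR followed the second order, at 0.853, 0.820 and 1.33. Which of PO_con1 and PO_con2 was lower depends on scaling. In RPKM, which is scaled by library size alone, PO_con1 was lowest in all 5 genes. GS_008748 then stood at 60.2 in PO_con1 against 61.9 in PO_con2, GS_013228 at 12.6 against 13.5 and SPR at 13.2 against 14.9.

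PO_con3 was then set against the mean of PO_con1 and PO_con2, a contrast chosen after the values had been seen. The ratio was 1.86 for GS_005902, 1.84 for GS_005903, 1.72 for GS_008748, 1.79 for GS_013228 and 1.59 for SPR. Over the 11063 tested genes with at least 5 TMM CPM in normal fish the median ratio was 0.98, 4.55% had a ratio at or above that of SPR, and PO_con3 was the highest normal fish in 36.5%. The coefficient of variation over the normal fish was 28.4 to 40.5% for the 5 genes, against a median of 15.5% for those 11063 genes. The size of this excess depends on scaling: with library totals alone the 5 ratios were 2.45, 2.44, 2.31, 2.39 and 2.12, in the same order of genes. No correlation is given over 3 fish.

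Other genes moved with PO_con3 too. Of the other pteridine enzymes, XDH had a ratio of 1.41 and AGMO of 1.17. The 9 melanophore genes had a median ratio of 1.34, with a range of 0.81 to 1.91, and PO_con3 was highest in 8 of them. The 4 muscle genes had a median ratio of 0.517, with a range of 0.151 to 0.812, and PO_con3 was highest in none. The 3 keratin genes had a median ratio of 1.29, with a range of 1.12 to 1.60, and PO_con3 was highest in 3 of them. The 4 immune genes had a median of 1.31, with a range of 1.01 to 2.27 (IL1B the highest), and PO_con3 was highest in 3 of them. The part of tissue composition in the high GCH1 and SPR level of PO_con3 was not tested. Leaving PO_con3 out kept all 5 genes lower in albino skin. The log2 fold change was then -8.11 for GS_005902, -8.17 for GS_008748, -6.97 for GS_013228 and -6.08 for SPR. For GS_005903 the fitted value, against 0 albino reads, was -10.75. The level remaining was 0.376% for GS_005902, 0.331% for GS_008748, 0.718% for GS_013228 and 1.36% for SPR.

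**Figure D3:**
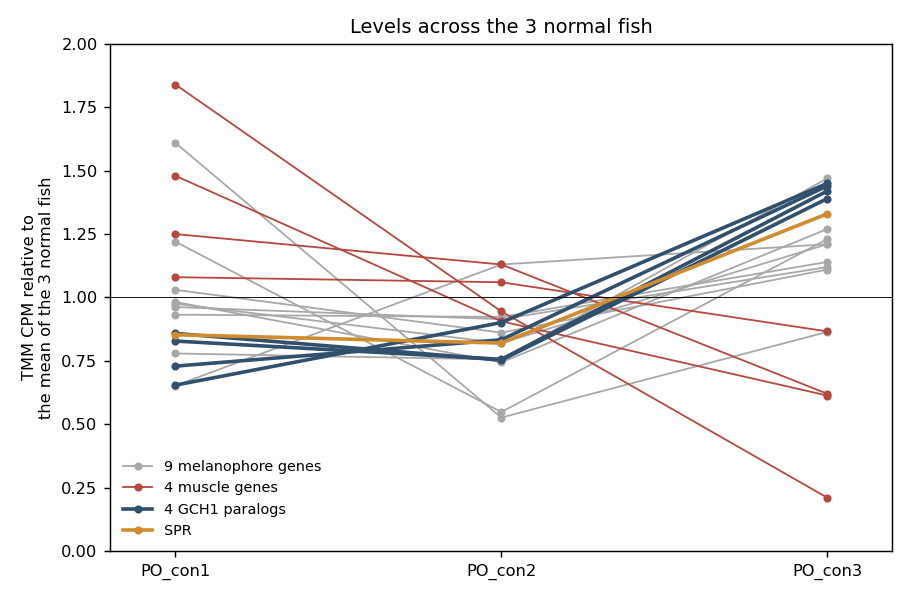
TMM CPM of each gene relative to its mean over the 3 normal fish, for the 4 GCH1 rows (dark blue), SPR (orange), 9 melanophore genes (grey) and 4 muscle genes (red), with lines joining the values of 1 gene. The GCH1 rows and SPR lie at 1.33 to 1.45 in PO_con3 and at 0.654 to 0.901 in PO_con1 and PO_con2, while the muscle genes are lowest in PO_con3.

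The fall of the 5 genes was set beside that of melanophore genes of the same libraries, listed by name from the study's own tables. That list was chosen on these samples and is no independent evidence of its direction. Of its 9 genes, 8 were lower in albino skin and none higher at an adjusted p under 0.05 (edgeR), with a median log2 fold change of -4.89, against 0.01 over all genes tested. SLC45A2 did not pass (adjusted p = 0.064, edgeR). OCA2 passed (adjusted p = 0.024, edgeR), but lost its call on leaving out any 1 fish but PO_con2 (adjusted p = 0.069 to 0.12, edgeR). Fits that left out 1 fish kept 6 to 8 of the 9 genes lower. Between 0.975% (MITF, the transcription factor of melanophores, with 1 albino read) and 25.8% (TRPM1, a cation channel) of the normal level remained, with a median of 3.36%. The log2 fold change of MITF was -6.17. Without PO_alb1, which held its only albino read, the value was -8.11, fitted against 0 reads and so dependent on the prior count. Tyrosinase (TYR), which begins melanin synthesis, kept 3.13%, with a log2 fold change of -5.06 that was -6.43 without PO_alb3 and that missed the threshold without PO_alb2 (adjusted p = 0.052, edgeR). PMEL, the fibre protein of the pigment granule, kept 1.88%. Each GCH1 row kept less than any of these 9 genes, with the upper limit taken for GS_005903, and SPR kept less than all but MITF. The place of MITF in this order rests on its 1 albino read. This order is a description, and albino levels under 10 reads carry wide counting error.

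A ratio within a library needs no scaling between libraries. Summed GCH1 reads per read of the 9 melanophore genes were 0.0329, 0.0526 and 0.111 in PO_alb1, PO_alb2 and PO_alb3, against 1.15, 1.65 and 2.07 in PO_con1, PO_con2 and PO_con3. SPR reads per melanophore read were 0.0461, 0.0132 and 0.0139 in the albino fish, against 0.15, 0.186 and 0.22 in the normal fish. So GCH1 and SPR were lower in albino skin also relative to the summed melanophore reads, and no albino fish reached the range of the normal fish. TRPM1, the least reduced gene of the list, gave 79 of 152, 53 of 76 and 35 of 72 of these reads in PO_alb1, PO_alb2 and PO_alb3. In PO_con1, PO_con2 and PO_con3 it gave 205 of 1457, 209 of 1209 and 316 of 2031. The size of the difference thus depends on TRPM1, and ratios without it were not computed. On a log2 scale with 0.5 reads added, the difference of albino minus normal in the ratio to melanophore reads was -4.60 for GS_005902, -5.17 for GS_005903, -4.45 for GS_008748, -3.00 for GS_013228 and -2.75 for SPR. The two-sided exact permutation p was 0.1 for each of these 5 comparisons, the smallest that 3 fish against 3 allow, so none can pass a threshold of 0.05.

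The albino fish were not alike in their residual pigment reads. In separate small RNA libraries, not used here, the paper found PO_alb1 poorly correlated with the other albino samples. It left PO_alb1 and PO_con1 out of its microRNA analysis, and whether this bears on the libraries used here was not tested. PO_alb1 held 152 reads of the 9 melanophore genes, against 76 and 72 in PO_alb2 and PO_alb3. TRPM1 alone gave 79, 53 and 35 of these reads. PO_alb1 also had 13 reads of SLC2A11, against 1 and 0, and 7 of SPR, against 1 and 1. Summed GCH1 did not follow this order, with 5 reads in PO_alb1, 4 in PO_alb2 and 8 in PO_alb3. With counts this small the difference between SPR and GCH1 in PO_alb1 is a description only.

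Next along the pathway, 2 further enzymes that act on pteridines or use them were followed, again named from the study's tables of genes called on these libraries. At an adjusted p under 0.05 from edgeR, 1 of the 2 fell, none rose and 1 did not pass. Xanthine dehydrogenase (XDH), which oxidises purines and pterins, changed by -3.69 (SE 0.31, adjusted p = 0.0013, edgeR), with 5, 8 and 7 reads in albino fish and 79, 81 and 144 in normal fish. Alkylglycerol monooxygenase (AGMO), which needs tetrahydrobiopterin as a cofactor, had a log2 fold change of -1.48 and missed the threshold (adjusted p = 0.051, edgeR), with 36.3% of the normal level in albino skin. Without PO_alb3 it passed, at -1.80 (adjusted p = 0.026, edgeR).

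**Figure D4:**
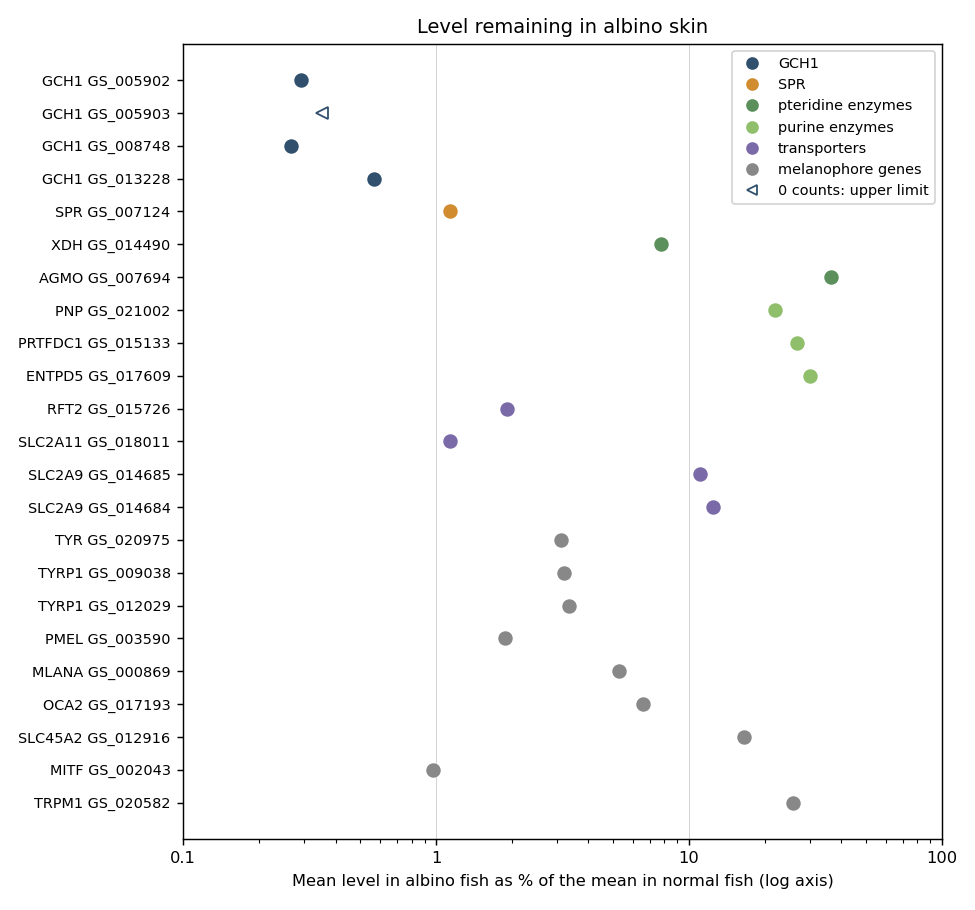
Mean TMM CPM in albino fish as a percentage of the mean in normal fish (log axis) for the 4 GCH1 rows, SPR, other pteridine enzymes, purine enzymes, transporters and melanophore genes, 1 point per gene and an open triangle for the upper limit of GS_005903. The GCH1 rows lie leftmost, and they and MITF (0.975%) are under 1%. SPR, SLC2A11, PMEL and RFT2 lie between 1 and 2%, and the purine enzymes, AGMO and TRPM1 keep 21.9 to 36.3%.

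Purine synthesis supplies GTP, the substrate of GCH1, and the guanine of iridophores, the reflecting pigment cells. The 3 listed genes of purine metabolism are not enzymes of that synthesis, and the supply of GTP was not measured. Of these 3, 1 fell, none rose and 2 did not pass, with a median log2 fold change of -1.90. PRTFDC1, a relative of the purine salvage enzyme HPRT, changed by -1.90 (SE 0.24, adjusted p = 0.01, edgeR), a call that was lost without PO_alb1, PO_alb2 or PO_con2 (adjusted p = 0.059, 0.054 and 0.081, edgeR). Purine nucleoside phosphorylase (PNP) changed by -2.16 (adjusted p = 0.064) and the nucleotidase ENTPD5 by -1.72 (adjusted p = 0.078), both short of the threshold in edgeR. PNP passed without PO_alb1 (-2.82, adjusted p = 0.031) and ENTPD5 without PO_alb2 (-2.18, adjusted p = 0.024). These genes kept 21.9 to 30.0% of the normal level, far more than GCH1.

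The 4 listed membrane transporters, a choice from the same tables, fell further. Of these 4, 3 were lower in albino skin, none higher and 1 did not pass, with a median log2 fold change of -4.44. They do not stand for membrane transporters at large. Others not followed here were called by the study in either direction, such as SLC1A4 lower and SLC32A1 higher in albino skin. SLC2A11, a member of the glucose transporter family known in medaka for a role in the differentiation of yellow pigment cells, kept 1.13% of its normal level (log2 fold change -6.34, SE 0.64, adjusted p = 0.0033, edgeR), as much as SPR. As with SPR this rested on PO_alb1, without which the log2 fold change of SLC2A11 was -9.25. RFT2, a riboflavin transporter, kept 1.90% (log2 fold change -5.77, SE 0.38, adjusted p = 0.0004, edgeR). SLC2A9, known in mammals as a urate transporter, was lower in 1 row (GS_014685, log2 fold change -3.12, adjusted p = 0.0036, edgeR). In the other (GS_014684) the change was -2.95 and did not pass in the main fit (adjusted p = 0.067, edgeR). That row passed without PO_alb1 (-4.23, adjusted p = 0.026, edgeR) and without the filter on low counts (adjusted p = 0.049, edgeR). It also passed with DESeq2 (adjusted p = 0.00046) and with limma-trend on RPKM (adjusted p = 0.032).

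Regulators of the pigment cell lineage were a further list of 4 genes, of which 3 fell, none rose and 1 did not pass, with a median log2 fold change of -1.95. SOX10, a transcription factor of neural crest derivatives, kept 30.0% (log2 fold change -1.73, SE 0.17, adjusted p = 0.0027, edgeR). The receptors KIT (adjusted p = 0.037, edgeR) and ALK (adjusted p = 0.045, edgeR) passed narrowly, and without scaling for composition neither did (adjusted p = 0.065 and 0.082). KIT also lost its call on leaving out any 1 fish (adjusted p = 0.061 to 0.17), and ALK on leaving out any but PO_alb1 (adjusted p = 0.11 to 0.17). PAX7, a transcription factor needed in zebrafish for xanthophores, stood at 1.81, 1.85 and 2.93 TMM CPM in PO_alb1, PO_alb2 and PO_alb3, against 4.95, 4.40 and 5.22 in PO_con1, PO_con2 and PO_con3. Its log2 fold change was -1.16 and did not pass (adjusted p = 0.10, edgeR), with 45.3% of the normal level in albino skin. Among the alternatives PAX7 passed with DESeq2 alone (-1.15, adjusted p = 0.011). The study, which used DESeq, called it lower too, so the call depends on the test.

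Muscle, keratin and immune genes were followed too, again named from the study's tables of genes called on these libraries. Lists chosen in this way are no independent evidence that such genes differ between the groups. Summed over the list, 4 muscle genes stood at 1813.3 to 2571.7 TMM CPM in albino fish and at 662.5 to 1333.6 in normal fish, with 1 of 4 higher in albino skin (METTL21C, log2 fold change 1.23, adjusted p = 0.037, edgeR), none lower and 3 not passed. That call held only without PO_alb2 among the fits that left out 1 fish (adjusted p = 0.079 to 0.18 in the others). The 3 keratin genes summed to 446.8 to 735.9 in albino and 1267.1 to 2155.6 in normal fish, with 2 lower, none higher and 1 not passed. Each of these sums is nearly that of 1 gene that did not pass, DES for muscle and KRT13 GS_014679 for keratin. KRT13 GS_014679 alone stood at 445.3 to 733.6 TMM CPM in albino and 1253.0 to 2139.4 in normal fish. The 4 immune genes summed to 16.5 to 30.6 in albino and 48.8 to 74.9 in normal fish, with 2 lower, none higher and 2 not passed. Most of each sum came from MMP9, which did not pass (adjusted p = 0.18, edgeR). MMP9 alone stood at 13.6 to 28.4 TMM CPM in albino and 37.0 to 58.9 in normal fish. The 4 immune genes do not stand for immune genes at large. The study also called genes outside this list higher in albino skin, among them lysozyme C, lysozyme g and C-reactive protein. Both immune calls, of IL1B (adjusted p = 0.043, edgeR) and an immunoglobulin row (GS_000622, adjusted p = 0.044, edgeR), were lost without PO_alb2, PO_alb3, PO_con2 or PO_con3 (adjusted p = 0.085 to 0.17), as was 1 of them without PO_alb1 or PO_con1. No defining marker of these lists was at 0 in every fish of a group. The keratin KRT18 changed most of these genes, by -4.52 on the log2 scale (adjusted p = 0.0032, edgeR), with 4.03% of the normal level in albino skin. The other keratins changed by -1.96 (KRT13 GS_018838, adjusted p = 0.0058, edgeR) and -1.47 (KRT13 GS_014679, adjusted p = 0.076, edgeR), and the most abundant muscle gene, DES, by 1.01 (adjusted p = 0.33, edgeR). The part of these shifts in the changes of GCH1 and SPR was not tested.

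Finally, the genes whose pattern over the 6 libraries was most like that of summed GCH1 were named by Pearson's r of log2(TMM CPM + 1) over 16255 genes. They were SLC24A3 (r = 0.9994), a cation exchanger, KIF5B (r = 0.9991), a kinesin heavy chain, TTC39B (r = 0.9991), the unnamed GS_000805 (r = 0.9984), and RDH11 (r = 0.9978), a retinol dehydrogenase. TTC39B stood at 0.374, 0.256 and 0.839 TMM CPM in PO_alb1, PO_alb2 and PO_alb3, against 30.0, 36.1 and 56.7 in PO_con1, PO_con2 and PO_con3, so that PO_con3 exceeded the mean of the other normal fish by 1.72 times, close to the GCH1 rows. SLC24A3 had an excess of only 1.27 times. The groups differ strongly in all of these genes, so r reads mainly the step between the groups. With r of 0.99 or more in 38 genes the order among them is fine, and with RPKM in place of TMM counts none of the 5 was among the 5 most alike.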

How the data were processed

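RNA of ocular-side skin from 3 albino and 3 normal fish was sequenced as paired reads, with 1 library per fish. The authors mapped reads with TopHat2 2.0.9 on a Bowtie2 2.0.6 index, assembled transcripts with Cufflinks 2.1.1 and counted reads per gene with HTSeq. The deposited counts are unscaled. The authors describe RPKM as based on the length of a gene and the reads mapped to it. The lengths given above were worked out with each library's total of counted reads as the library size. The genome build and the strand and multiple-mapping settings are not given in the sources used here.

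The test here was that of edgeR 4.0.16 in R 4.3.3 (filterByExpr, TMM, quasi-likelihood test, Benjamini-Hochberg, threshold 0.05), with all 6 libraries and no covariate. The common dispersion was 0.0475. SEs were derived from the test statistic. DESeq2 1.42.0 and limma 3.58.1 served as alternatives, with other scaling, filters, a robust variance, a replicate block and leaving out libraries. RLE and total scaling for the normal fish, and the alternatives for the lists, were added after the data were seen. The fit was tested on simulated data. Shares used exact 95% Clopper-Pearson intervals (scipy 1.17.1), and a group with 0 counts a floor of 3 counts. Intervals and floors cover counting error only. Plots used Python 3.11.15 and matplotlib 3.10.9.

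The named genes are the 5 GCH1 and SPR rows, every gene of the lists, and the 5 genes most like summed GCH1. Members and lists were chosen with earlier results of these data known, and names come from the paper's tables. Of 5 immune genes listed, 1 was not matched by ID and is left out of the immune results. It is another immunoglobulin heavy chain row, which the study called lower in albino skin. A further gene was left out of the pteridine list after the analysis and is not reported here. No other library was used. Replicates are separate fish of 1 family. No pair of libraries within a group agreed within sampling noise.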

Additional observations from a re-analysis of the deposited data

How the results depend on the processing

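All 5 GCH1 and SPR genes stayed lower in albino skin in 70 of 70 calls under the alternatives. In the count fits the log2 fold change ranged from -9.42 to -8.06 for GS_005902, -11.38 to -10.51 for GS_005903 (fitted values against 0 reads), -8.84 to -8.12 for GS_008748, -7.52 to -6.97 for GS_013228 and -7.79 to -5.89 for SPR. On log2(RPKM + 1), limma-trend gave -6.14 for GS_005902, -4.78 for GS_005903, -6.09 for GS_008748, -4.08 for GS_013228 and -4.01 for SPR, since the added 1 exceeds every albino value. The highest adjusted p was 0.022, for GS_005903 without PO_con2. Over all genes, the 148 lower and 21 higher calls became 272 and 84 with DESeq2, 89 and 7 with limma-trend on RPKM, and 67 to 138 and 2 to 14 on leaving out 1 fish. With library totals alone 7 genes were higher and 2 pteridine genes lower. Without a filter on low counts 2 pteridine and 3 purine genes were lower and 2 muscle genes higher. DESeq2 called 2 pteridine, 3 purine, 4 transporter, 4 lineage and 4 immune genes lower and 3 muscle genes higher. With limma-trend on RPKM 2 purine, 1 lineage and 1 immune gene were lower, and with library totals alone 1 lineage and 0 immune genes. Leaving out 1 fish gave 1 to 2 pteridine, 0 to 1 purine, 1 to 2 lineage and 0 to 1 immune genes lower and 0 to 1 muscle genes higher. By counts in place of RPKM the share of GCH1 was 44.9% for GS_005902, 12.2% for GS_005903 and 34.8% for GS_008748, against 40.3, 12.6 and 38.7%. The level of GS_013228 remaining in albino skin was 0.507 to 0.718% on leaving out 1 fish. The cause of these shifts was not tested. Of the calls of the 38 other named genes, 443 were unchanged, 62 were lost, 27 were gained and none turned direction.

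Deviations of same-numbered fish from their group means correlated at -0.212, 0.188 and -0.499. Those of fish with different numbers correlated at -0.32 to 0.481. Deviations from a group mean cancel within the group, so these values are tied to each other and cannot decide whether the numbers pair the fish. With the replicate number as a block all 5 GCH1 and SPR genes remained called, with log2 fold changes of -8.47 for GS_005902, -11.12 for GS_005903, -8.45 for GS_008748, -7.27 for GS_013228 and -6.34 for SPR. Over all genes the block left 53 lower and 4 higher calls. It left 1 pteridine, 0 purine, 1 transporter, 1 lineage, 3 melanophore, 0 keratin and 0 immune genes lower and 0 muscle genes higher.

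With 0 to 7 reads per gene in an albino library, depth limits any ranking of the 5 genes in albino skin, and 3 fish a group limit every test of a single gene.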
